A study of Mus musculus with 40 samples.

Results

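The blood glucose of each animal was set against gene expression in its gonadal white adipose tissue, on all 40 of the 40 arrays of the series. Each array was hybridised with the RNA of 1 male C57BL/6J mouse, and the glucose reading of the same mouse, in mg/dl, stands in the labels. The labels do not say when glucose was read. It was taken to be the fasting glucose that the study's methods describe for these mice at 9 weeks. The 4 groups of 10 animals are named by the diet of the dam first and the diet after weaning second. LL animals had LF fed dams and were LF fed themselves, LH animals had LF fed dams and were HF fed, HL animals had HF fed dams and were LF fed, and HH animals had HF fed dams and were HF fed. The LF diet was low in fat and high in carbohydrate, and the HF diet was high in fat and low in carbohydrate. Both had coconut oil as their main fat. The mice were killed at 9 weeks of age after a fast of 4 hours. All 4 groups share the inbred strain and the sex, so the spread within a group is the spread between inbred males on 1 diet history. The labels name 12 cages, 6 for each maternal diet, of which 5 held animals of both diets and 7 held animals of 1 diet. They do not say whether this is the cage of birth. By the study's methods, the males of a cage were split between the diets at weaning. The question was whether, among animals of the same group, the animals with higher glucose had higher or lower levels of particular transcripts.

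White adipocytes take up glucose through GLUT4, the transporter that insulin moves to the cell surface. Inside the adipocyte, glucose is used for glycerol and for fatty acid synthesis, and the glucose-responsive factor ChREBP drives the genes of that synthesis. The fat pad also sends out leptin, adiponectin and other hormones that act on glucose use elsewhere. In a short fast insulin falls, lipolysis and fatty acid oxidation are favoured, and pyruvate dehydrogenase kinase spares glucose.

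Levels are intensities in array units, tested as log2 values. The relation to glucose is given as a slope, the difference in log2 intensity per 50 mg/dl of glucose, with expression and glucose both centred on the means of the 4 groups. A slope above 0 means a higher level in animals with higher glucose than their group. A probe was tested when its intensity was above the array's background on at least 20 of the 40 arrays. The background was the 95th percentile of 1304 probes for olfactory and vomeronasal receptors, and lay between 78.07 and 94.28 units. Of 25697 probes, 14244 passed, for 9795 named genes, and 10738 of them were above background on all 40 arrays.

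Some arrays held transcripts of neighbouring organs. On 7 arrays (2 LL, 1 LH, 3 HL and 1 HH) the mean of the epididymis and seminal vesicle markers or of the testis markers lay more than 2 log2 units above its median over the 40 arrays, which was 6.5 for the first list and 6.94 for the second. These arrays also differed in the tissue's own markers. The mean log2 intensity of the adipocyte identity genes ranged from 9.58 to 11.21 on the 7 arrays, with a median of 9.87, and from 10.72 to 11.55 on the other 33, with a median of 11.23. The 5 of them from LF fed animals were also the 5 arrays that correlated least with the rest. In LL, the animals of both such arrays, animals 1 and 4, had the lowest glucose of their group, 167 and 171 mg/dl. In the other groups the animals of these arrays lay -20.8 to 21.5 mg/dl from their group mean. The fits were therefore repeated without the 7 arrays, which leaves 18 HF fed and 15 LF fed animals.

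Glucose varied widely within each group. In LL it ran from 167 mg/dl through a median of 196 to 261 mg/dl, and in LH from 187 through 221 to 277 mg/dl. In HL it ran from 148 through 191 to 241 mg/dl, and in HH from 129 through 178 to 271 mg/dl. The ranges of all 4 groups overlapped. Once the group means were taken out, the SD was 33.4 mg/dl over the 40 animals, 36.7 in HF fed and 29.8 in LF fed animals. Single animals lay up to 82.5 mg/dl above and down to -59.5 mg/dl from their group mean, and both extremes were HH animals, animal 7 at 271 mg/dl and animal 1 at 129 mg/dl. Differences between cages held 37.6% of the variance within groups, counted over 17 combinations of cage and diet. So many combinations of 40 animals take up a large share even where cages do not differ. The share therefore does not show an effect of cage, which was not tested.

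**Figure D1:**
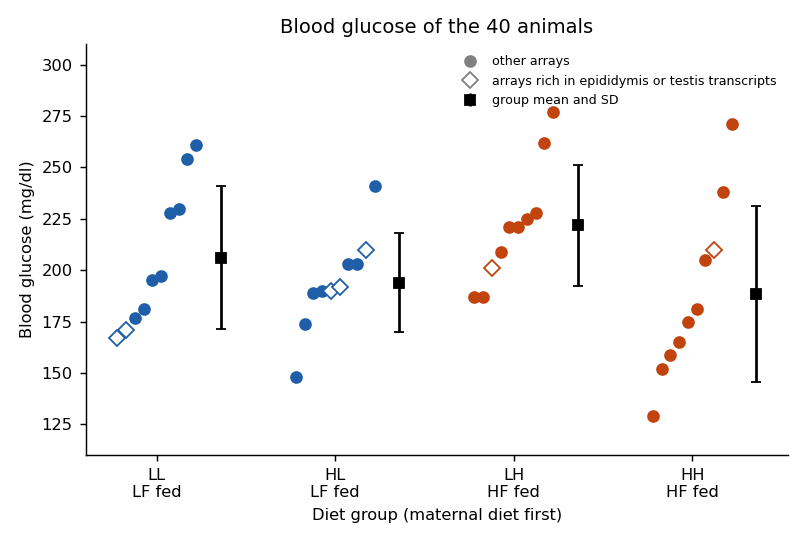
Blood glucose in mg/dl of each of the 40 animals, by group, with 10 animals a group. Round points are animals, open diamonds are the 7 animals whose arrays were rich in epididymis or testis transcripts, and squares with bars are the group mean with its SD. The groups overlap, HH 7 stands highest in HH at 271 mg/dl, and the 2 open diamonds of LL are the lowest of that group.

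Heavier animals did not have detectably higher glucose. The labels give the body weight at 3 weeks, a second and later body weight, and a body length, and 9 relations to glucose were tested (3 measures, each over all animals and within each diet). For the second weight, Pearson's r over the 40 animals was 0.29 (permutation p = 0.0801, adjusted p = 0.36) and Spearman's rho was 0.2 (permutation p = 0.224). Without the animals farthest in glucose, HH 7 and LH 4, r was 0.07. Within cage and diet r was 0.50 (permutation p = 0.0297, adjusted p = 0.253). For the weight at 3 weeks r was 0.1 (permutation p = 0.597) and for length 0.05 (permutation p = 0.762, 38 animals). Of the 9 relations 0 passed after Benjamini-Hochberg adjustment.

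Over all 40 arrays no transcript passed the test against glucose. With limma, 0 of 14244 probes (0%) had an adjusted p under 0.05, and the lowest adjusted p was 0.96. At an unadjusted p under 0.05 there were 427 probes, 3% of those tested, 370 with a slope above 0 and 57 below. Counted by gene, with the brightest probe of each, 2.5% of genes had a slope above 0 and an unadjusted p under 0.05, and 0.408% had one below 0. The standard error of a slope had a median of 0.0622 log2 units per 50 mg/dl. Slopes were on balance above 0, with 61.4% of all genes there and a median of 0.0201 over the probes. With the 7 arrays left out, 548 probes had an unadjusted p under 0.05, 442 with a slope above 0 and 106 below, 0 passed the adjustment, and 56.7% of genes had a slope above 0. All values of single genes over the 40 arrays are therefore descriptions of relations that did not pass.

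The genes with the smallest p of any probe and a slope above 0 were Zfp667, Neu3, Slc39a3, Cables2, Stx12, Cuta, Gcnt2 and Cyp4f13. Zfp667, a zinc finger protein on chromosome 7, had 96.0, 107.8 and 133.9 units as the lowest, median and highest value in LL and 92.9, 107.2 and 116.3 units in LH. It had 95.3, 105.9 and 113.8 units in HL and 94.4, 107.7 and 132.3 units in HH. The highest values of LL and HH were those of LL 5 and HH 7, the animals with the highest glucose of each group. The slope of Zfp667 was 0.11 ± 0.029 (SE, unadjusted p = 0.000643), a ratio of 1.08 in intensity per 50 mg/dl. Its Pearson's r with glucose was 0.56 (permutation p = 0.00068), its rho was 0.47 (permutation p = 0.00522), and r was 0.49 without the 2 animals farthest in glucose. Within groups r was 0.83 in HH, 0.73 in LL, 0.25 in LH and -0.18 in HL, so HL did not share the direction.

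Neu3, a sialidase that trims gangliosides, had slopes above 0 in all 4 groups, with r of 0.63 in LL, 0.61 in both LH and HL, and 0.36 in HH. Its levels were close to the background. They ran from 80.7 to 103.6 units in LL, 87.6 to 115.8 in LH, 82.0 to 109.4 in HL and 75.8 to 115.9 in HH, and it was above background on 25 arrays. The slope was 0.10 ± 0.031 (unadjusted p = 0.00201), and 0.06 within cage and diet (unadjusted p = 0.166). The probe of Cables2 was as dim, above background on 28 arrays, with a slope of 0.084 (unadjusted p = 0.00441). For Slc39a3, a zinc transporter, the probe of smallest p was above background on 24 arrays and had a slope of 0.096 (unadjusted p = 0.00431), and its brightest probe had 0.042 (unadjusted p = 0.317). For Gcnt2, an enzyme of glycan branching, the probe of smallest p was above background on 20 arrays, the fewest that the filter allows, with a slope of 0.094 (unadjusted p = 0.00521). Its brightest probe, far above background, had a slope of 0.12 (unadjusted p = 0.0909).

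Stx12, a syntaxin of endosomal membranes, and Cuta were brighter. Stx12 had 466.2, 794.8 and 988.9 units as the lowest, median and highest value in LL and 708.9, 918.2 and 1079.5 units in LH. It had 566.9, 834.3 and 973.2 units in HL and 589.8, 791.5 and 943.2 units in HH. LL 4, whose array was rich in testis transcripts, held the lowest value, and the groups overlapped. The slope of Stx12 was 0.16 ± 0.052 (unadjusted p = 0.0046) with all arrays, 0.13 (unadjusted p = 0.00426) without the 7 arrays and 0.19 (unadjusted p = 0.00458) within cage and diet. Its r was 0.61, 0.37, 0.39 and 0.48 in LL, LH, HL and HH. Cuta had a slope of 0.14 (unadjusted p = 0.00521) by 1 probe, which was 0.11 (unadjusted p = 0.0477) without HH 7. Its brightest probe, of nearly the same intensity, had a slope of 0.023 (unadjusted p = 0.595), so the probes of Cuta differed.

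The genes with the smallest p of any probe and a slope below 0 were Eif5, Usp1, Tex10, Prm1, Ccp110, Tmem176a, Xpo4 and Sidt2. For Eif5, Usp1 and Tex10 this was not the brightest probe of the gene, whose slope was -0.025 (unadjusted p = 0.558), -0.14 (unadjusted p = 0.131) and 0.007 (unadjusted p = 0.899). Usp1 is a deubiquitinase of DNA repair. It ran from 146.3 through a median of 209.0 to 681.8 units in LL, where LL 4 held the highest value, and from 151.1 through 196.2 to 239.1 units in LH. In HL it ran from 194.9 through 217.6 to 347.5 units and in HH from 182.0 through 213.0 to 316.2 units. Its slope was -0.23 ± 0.082 (unadjusted p = 0.0073) and -0.16 (unadjusted p = 0.000928) without the 7 arrays. By this probe r was below 0 in each group, from -0.63 in HH to -0.2 in HL. The brightest probe of Usp1 had slopes below 0 in LL, LH and HL but 0.071 in HH. Eif5, a translation initiation factor, had a slope of -0.13 ± 0.045 (unadjusted p = 0.00665), which was -0.09 (unadjusted p = 0.0683) without HH 7. Tmem176a, a membrane protein of myeloid cells, had a slope of -0.30 (unadjusted p = 0.0157), and -0.27 without the 7 arrays.

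Prm1, which encodes the protamine that packs sperm DNA, is a testis transcript, and its slope was the steepest of these genes. In LL it ran from 104.3 through 643.4 to 37044 units, and in LH from 90.5 through 1975.4 to 17240 units. In HL it ran from 80.8 through 2476.3 to 30427.1 units and in HH from 86.3 through 684.9 to 6955.1 units. The range within each group was far wider than any difference between groups, and the highest value was that of LL 4. Its slope was -1.64 ± 0.63 (unadjusted p = 0.0128), a ratio of 0.32 per 50 mg/dl, and -1.31 (unadjusted p = 0.0289) without the 7 arrays. The slope of Prm1 was thus below 0 also over the arrays under the limit set for rich arrays. The part of testis RNA in the other relations of single genes was not tested, and counts from fits with the organ markers as covariates are given below.

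**Figure D2:**
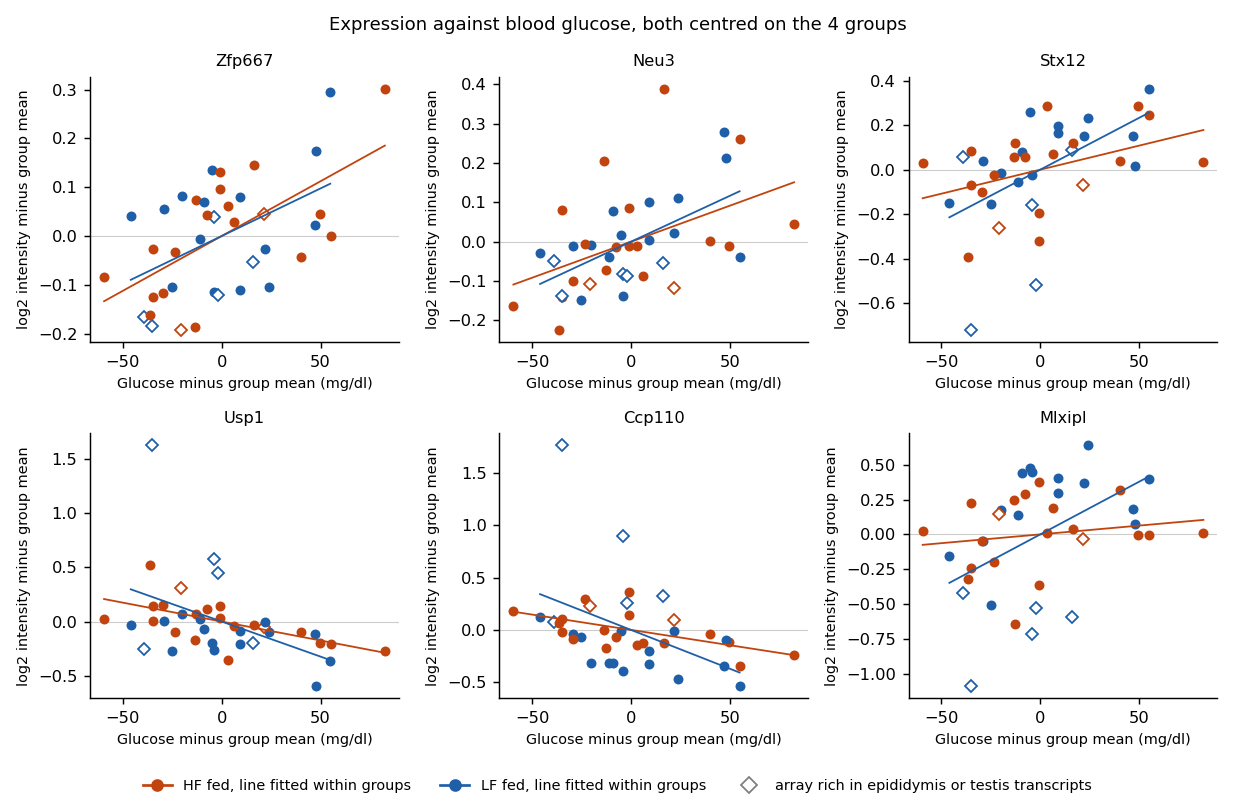
Log2 intensity against glucose in mg/dl, each centred on the mean of the animal's group, for Zfp667, Neu3, Stx12, Usp1, Ccp110 and Mlxipl in the 40 animals. Orange marks HF fed and blue LF fed animals with a line fitted within groups for each diet, and open diamonds are the 7 animals whose arrays were rich in epididymis or testis transcripts. The points scatter broadly around the lines, and an open diamond, LL 4, stands highest for Usp1 and lowest for Stx12.

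The genes of insulin action and glucose use were examined whatever their result, and none had an adjusted p under 0.05. Slc2a4, which encodes GLUT4, ran from 211.8 through 870.1 to 1209.8 units in LL and from 666.5 through 854.4 to 1054.1 units in LH. It ran from 304.4 through 991.6 to 1450.5 units in HL and from 591.3 through 756.9 to 905.0 units in HH. The lowest values of LL were those of LL 4 and LL 1, at 211.8 and 277.0 units, both on arrays rich in other organs. Its slope over all animals was 0.20 ± 0.15 (unadjusted p = 0.191), 0.12 (unadjusted p = 0.395) without LL 4 and 0.04 (unadjusted p = 0.513) without the 7 arrays. Within groups r was 0.65 in LL, 0.14 in HH, -0.01 in HL and -0.51 in LH, so no direction was shared.

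Of the insulin receptor substrates, Irs2 had a slope of 0.20 (unadjusted p = 0.0668), and 0.15 (unadjusted p = 0.114) without the 7 arrays, and Irs1 one of -0.026. Akt2, the kinase through which insulin moves GLUT4, had a slope of 0.25 (unadjusted p = 0.0901), and 0.15 (unadjusted p = 0.0194) without the 7 arrays. The insulin receptor gene Insr did not pass the background filter and was not tested. In the list of insulin signalling and GLUT4 genes 12 of 20 tested genes had a slope above 0, against 61.4% of all genes, and the median slope was 0.011.

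Mlxipl, which encodes ChREBP, ran from 284.7 through 653.4 to 944.6 units in LL and from 377.7 through 625.5 to 765.6 units in LH. It ran from 408.5 through 758.6 to 932.0 units in HL and from 341.9 through 426.5 to 520.8 units in HH. LL 4 was again the lowest of LL, and the groups overlapped. Its slope was 0.19 ± 0.093 (unadjusted p = 0.0507), 0.13 (unadjusted p = 0.0702) without the 7 arrays and 0.14 (unadjusted p = 0.111) without LL 4, with r above 0 in each group. Txnip, a glucose-responsive inhibitor of glucose uptake, had levels of 2767.9 to 10769.8 units and a slope of 0.16 (unadjusted p = 0.133), which was 0.075 without the 7 arrays. Pfkfb3, which makes the activator of phosphofructokinase, had a slope of 0.17 (unadjusted p = 0.0131) and of 0.12 (unadjusted p = 0.0635) without the 7 arrays. Hk2, the hexokinase that insulin raises, had a slope of 0.069.

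Among genes of fat synthesis, Scd2 and Tkt had slopes of 0.22 (unadjusted p = 0.0589) and 0.20, which were 0.26 and 0.12 without the 7 arrays, and Elovl6 and Scd1 slopes of 0.085 and 0.036. Decr1, an auxiliary enzyme in the oxidation of unsaturated fatty acids, had a slope of 0.30 ± 0.12 (unadjusted p = 0.0198), and 0.22 (unadjusted p = 0.0177) without the 7 arrays. Pck1, the enzyme of glyceroneogenesis, spanned 125.5 to 5876.3 units and had a slope of 0.01 (unadjusted p = 0.978), and -0.32 (unadjusted p = 0.299) without the 7 arrays. Pdp2, the phosphatase that activates pyruvate dehydrogenase, had a slope of 0.14 (unadjusted p = 0.0313), and Sdhc, a subunit of succinate dehydrogenase, one of 0.18 (unadjusted p = 0.0175). They were 0.13 and 0.15 without the 7 arrays. None of these slopes passed the adjustment.

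Lep, which encodes leptin, ran from 1816.3 to 20988.1 units over the 40 animals and had a slope of 0.29 (unadjusted p = 0.109), which was 0.11 (unadjusted p = 0.397) without the 7 arrays. Mest, a gene that marks expansion of the fat pad, had a slope of 0.15. Of the other adipokine genes, Retn had a slope of 0.18 (unadjusted p = 0.103), Rbp4 one of 0.14 and Adipoq one of 0.042. Without the 7 arrays the slope of Retn was 0.078, and those of Mest, Rbp4 and Adipoq were -0.058, -0.14 and -0.052. Fkbp5, a target of the glucocorticoid receptor, had a slope of -0.23 (unadjusted p = 0.0651), with slopes below 0 in all 4 groups. The clock genes Tef, Cry2 and Nr1d1 had slopes of 0.22 (unadjusted p = 0.0255), 0.15 (unadjusted p = 0.047) and 0.13, which were 0.15, 0.096 and 0.035 without the 7 arrays. The inflammation genes Ccl2, a monocyte chemokine, and Adgre1, the macrophage marker F4/80, had slopes of -0.092 and -0.014, and of -0.18 and -0.15 without the 7 arrays. Ucp1, the thermogenic uncoupler, did not pass the background filter and was not tested.

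In the 20 HF fed animals alone no transcript passed. Of 14244 probes 0 (0%) had an adjusted p under 0.05 with limma, the lowest was 0.999, and 591 had an unadjusted p under 0.05, 320 above 0 and 271 below. By gene 2.47% had a slope above 0 and 1.86% a slope below 0 with an unadjusted p under 0.05. Of all genes 50.3% had a slope above 0, and 49.6% without the 2 HF fed animals whose arrays were rich. The HF fed values leaned on HH 7, the animal with the highest glucose of HH, since leaving it out took the count from 591 to 185.

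The smallest p in HF fed animals belonged to Bcl2l1, which encodes the survival protein Bcl-xL. It ran from 197.3 through 225.8 to 281.3 units in LH and from 181.8 through 250.6 to 376.6 units in HH, and HH 7 held the lowest value. Its slope was -0.25 ± 0.061 (unadjusted p = 0.000447), with r of -0.75 in LH and -0.71 in HH. Without HH 7 the unadjusted p was 0.0064, and within cage and diet the slope was -0.31 (unadjusted p = 0.00017). Garre1, Cryz, a quinone reductase, Tmcc2 and Eng followed, with slopes between -0.31 and -0.16. Eng, which encodes the endothelial co-receptor endoglin, had a slope of -0.11 (unadjusted p = 0.102) without HH 7. For Cryz the brightest probe had a slope of -0.055 (unadjusted p = 0.288).

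Above 0 in HF fed animals stood Fut4, a fucosyltransferase, Ap1s3, a subunit of a clathrin adaptor, Pgm5, Itga2b and Capn10, a calpain, with slopes between 0.205 and 0.39. All 5 were lower without HH 7, with slopes of 0.16 for Fut4, 0.14 for Ap1s3, 0.12 (unadjusted p = 0.0539) for Pgm5 and 0.14 for Capn10. Itga2b, the integrin of platelets and megakaryocytes, ran from 74.9 through 96.8 to 133.2 units in LH and from 92.8 through 109.5 to 364.1 units in HH, with HH 7 at 364.1 units. Its slope was 0.39 ± 0.10 (unadjusted p = 0.00117) with HH 7 and 0.14 (unadjusted p = 0.0809) without it. Pdk4, the kinase that shuts pyruvate dehydrogenase in fasting, ran from 749.1 through 1063.1 to 1422.7 units in LH and from 585.1 through 1506.6 to 3311.4 units in HH. Its slope was -0.36 (unadjusted p = 0.0316) in HF fed animals and -0.16 (unadjusted p = 0.382) without HH 7, which again held the lowest value of HH.

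In the 20 LF fed animals the count of small p-values was higher with only group means and glucose in the model, but again no transcript passed. Of 14244 probes 0 (0%) had an adjusted p under 0.05 with limma, the lowest was 0.509, and 1140 had an unadjusted p under 0.05, 902 above 0 and 238 below. By gene 5.52% had a slope above 0 and 1.89% a slope below 0 with an unadjusted p under 0.05. Of all genes 60% had a slope above 0, and the median over the probes was 0.048. Without the 5 LF fed animals whose arrays were rich, 2292 probes had an unadjusted p under 0.05, the lowest adjusted p was 0.301, and 59.5% of genes had a slope above 0. The standard errors were also larger than in HF fed animals, with a median of 0.109 against 0.0625. The count did not stay higher in every setting. With the epididymis and testis list means as covariates it was 407 (2.86%), against 600 (4.21%) in HF fed animals. With glucose centred within cage and diet it was 292 (2.05%), against 1548 (10.9%) in HF fed animals.

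Mtfp1, a protein of mitochondrial fission, had the smallest p in LF fed animals. It ran from 81.1 through 98.2 to 125.6 units in LL and from 86.3 through 101.4 to 115.0 units in HL. The lowest values of both groups lay within the range of the array backgrounds. Its slope was 0.21 ± 0.050 (unadjusted p = 0.000399), with r of 0.83 in LL and 0.58 in HL, and 0.17 (unadjusted p = 0.00408) without the rich arrays. Chst8, a sulfotransferase that acts on the sugars of pituitary hormones, ran from 95.0 through 121.1 to 206.4 units in LL and from 80.1 through 124.8 to 216.0 units in HL. Its slope was 0.48 ± 0.12 (unadjusted p = 0.000815), the same to 2 decimals without the rich arrays, and 0.43 (unadjusted p = 0.00926) within cage and diet. Il20ra, a cytokine receptor chain, Rab1b, a GTPase of early secretion, and Cables2 had slopes of 0.19, 0.26 and 0.15. The brightest probe of Rab1b had a slope of 0.21 (unadjusted p = 0.065). Below 0 stood Chrna2, Ptpn6, Fam167a, Nudt11 and D17H6S56E-5, with slopes from -0.84 to -0.25. Ptpn6 encodes the phosphatase SHP-1 of blood cells.

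The slopes of the 2 diets were compared directly, as the slope in HF fed minus that in LF fed animals. With limma 0 of 14244 probes (0%) had an adjusted p under 0.05, and the lowest was 0.346. At an unadjusted p under 0.05 there were 1938 probes, 517 above 0 and 1421 below. The count was 1849 without the 7 arrays and 797 without HH 7. By gene 4.21% had a difference above 0 and 9.23% a difference below 0 with an unadjusted p under 0.05. Of all genes 58.2% had a lower slope in HF fed animals, and 57.5% without the 7 arrays. Over the 9795 genes the HF fed and LF fed slopes had a correlation of -0.34, and of -0.32 without the 7 arrays, which is across genes that share arrays and are not independent replicates. Between single groups this correlation was 0.32 for LL with HL and -0.03 for LH with HH. It was -0.43 for HL with HH and -0.29 for LL with LH.

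Chst8 had the smallest p of the difference. In HF fed animals it ran from 101.7 through 120.1 to 178.9 units in LH and from 86.0 through 117.4 to 147.8 units in HH, with HH 7 lowest and HH 1 highest. Its slopes were -0.14 in HF fed and 0.48 in LF fed animals, and the difference was -0.61 ± 0.14 (unadjusted p = 7.15e-05, adjusted p = 0.346). With weights for array quality the difference was -0.64 and its adjusted p was 0.0219, and 2 probes passed, both with a lower slope in HF fed animals. Of the 231 alternative settings run over the 4 comparisons, this was the only one in which a probe passed.

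Bcl2l1 had a difference of -0.46 ± 0.11 (unadjusted p = 0.000195), from -0.25 in HF fed and 0.20 in LF fed animals, where its levels were 199.2 to 318.7 units in LL and 178.5 to 333.0 units in HL. Itga2b had a difference of 0.86 ± 0.20 (unadjusted p = 9.1e-05), and 0.61 (unadjusted p = 0.00242) without HH 7. Cul2, a scaffold of ubiquitin ligases, had a difference of -0.26 (unadjusted p = 9.52e-05) by its brightest probe. Its other probe, of nearly the same intensity, had slopes of -0.011 (unadjusted p = 0.807) in HF fed and 0.013 (unadjusted p = 0.774) in LF fed animals, so the probes of Cul2 differed. Jup, the junction protein plakoglobin, and Adcy4, an adenylate cyclase, had differences of -0.50 and -0.45, and the brightest probe of Adcy4 had -0.43 (unadjusted p = 0.0724). Emb, a membrane glycoprotein, Fam171a2, Ap1s3 and Acer3, a ceramidase, had differences between 0.65 and 1.91. For Pdk4 the difference was -0.86 (unadjusted p = 0.0081), from -0.36 in HF fed and 0.50 in LF fed animals, and -0.64 (unadjusted p = 0.00909) without the 7 arrays.

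Foxo1, the factor that insulin keeps out of the nucleus, was chosen after its values were seen, as the gene with the lowest adjusted p of the difference without the 7 arrays. It ran from 191.9 through 428.1 to 547.6 units in LL and from 206.0 through 486.6 to 711.9 units in HL, and its lowest value in LH was 425.4 units. Its slope was -0.15 (unadjusted p = 0.016) in HF fed and 0.47 (unadjusted p = 0.0193) in LF fed animals. Without the 7 arrays the difference was -0.53 with an adjusted p of 0.123.

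Some genes had an unadjusted p under 0.05 in both diets. They were 55 genes, 13.0% of the 424 in HF fed animals and 7.58% of the 726 in LF fed animals, and all 55 had slopes of opposite sign, 39 above 0 in HF fed and 16 below. Of all 9795 genes, 4.33% had such a p in HF fed and 7.41% in LF fed animals. The same count without the 7 arrays was 65, of which 62 had opposite signs and 3 the same sign, and 34 were among the 55. Both counts come from lists in which no gene passed the adjustment. Slopes of 1 sign in all 4 groups were found for 1107 of 9795 genes, 850 above 0 and 257 below. Counted without the 7 arrays they were 1147, of which 691 were among the first. Neu3, Stx12, Pfkfb3, Mlxipl, Irs2, Akt2 and Retn were above 0 in all 4 groups with and without the 7 arrays, and Prm1 and Fkbp5 below. Most of these genes were named for a small p of the slope pooled over the same groups. A shared sign is therefore partly built in and is no separate evidence. Lep was above 0 in all 4 groups with all arrays, but its slope in LL was -0.068 without the rich arrays.

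**Figure D3:**
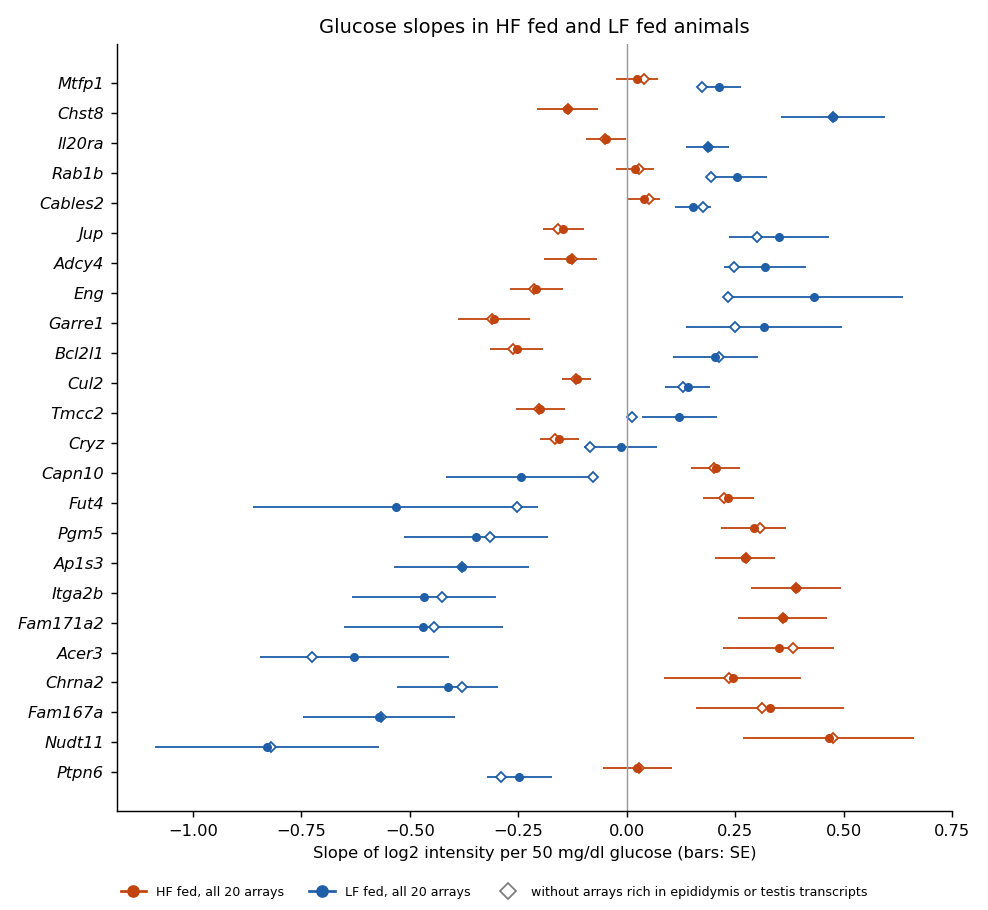
Slope of log2 intensity per 50 mg/dl of glucose for 24 of the genes named for a single diet or for the difference between diets, in HF fed (orange) and LF fed animals (blue), 20 arrays each, with bars for the standard error. Open diamonds are the slopes without the arrays rich in epididymis or testis transcripts. Chst8 lies at -0.14 in HF fed and 0.48 in LF fed animals, and its diamonds cover its points.

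The genes of fat synthesis and of fatty acid oxidation had slopes above 0 in all or nearly all cases over the 40 arrays, but not without the 7 arrays. In bulk tissue, fewer cells of a type and less RNA per cell cannot be told apart, so each list describes the RNA of the whole pad. Of the lipogenesis and ChREBP target genes 16 of 16 had a slope above 0, with a median of 0.156 and a range of 0.0 to 0.28, against 61.4% of all genes with a median of 0.018, and none had an unadjusted p under 0.05. Leaving out the 7 arrays, 11 of 16 did, with a median of 0.073, against 56.7% of all genes. In HF fed animals 12 of 16 had a slope above 0 (median 0.041) and in LF fed animals 13 of 16 (median 0.317). The LF fed count was 10 of 16 (median 0.015) without the 7 arrays. With all arrays the mean of this list had an r with glucose of 0.72 in LL, -0.25 in HL, 0.13 in LH and 0.35 in HH. HL thus did not share the sign of LL. Mlxipl, Scd2 and Tkt were the members with the smallest p.

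For the fatty acid oxidation genes, as for many of the lists, the 2 diets gave medians of opposite sign. Of 19 tested genes 18 had a slope above 0 in LF fed animals, with a median of 0.279 and 5 at an unadjusted p under 0.05. In HF fed animals 3 of 19 had a slope above 0, with a median of -0.063. The difference was below 0 for 18 of 19 genes, with 10 at an unadjusted p under 0.05, against 9.23% of all genes in that direction, and none passed the adjustment. Leaving out the 7 arrays, 15 of 19 had a slope above 0 in LF fed animals (median 0.125) and 5 of 19 in HF fed animals. The median difference was then -0.185, with 6 genes at an unadjusted p under 0.05. Over all 40 arrays 18 of 19 had a slope above 0 and without the 7 arrays 8 of 19 did. With all arrays the mean of this list had an r with glucose of 0.65 in LL, -0.05 in HL, -0.47 in LH and -0.23 in HH. In the 8 LL animals without rich arrays r was 0.62. The LF fed relation was thus that of LL and was not shared by HL. The genes of beta-adrenergic control and lipolysis had a slope above 0 in 10 of 13 cases over all arrays, in 4 of 13 in HF fed and in 10 of 13 in LF fed animals (median 0.35). Leaving out the 7 arrays, 5 of 13 had one over all animals and 8 of 13 in LF fed animals (median 0.114).

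The other metabolic lists stood nearer to the background of all genes. Of the glycolysis genes 9 of 13 had a slope above 0 (median 0.069), of the glyceroneogenesis and pyruvate dehydrogenase genes 10 of 16 (median 0.016), and of the respiratory chain genes 27 of 38 (median 0.025). The circadian genes had 10 of 14 above 0, the glucocorticoid genes 6 of 14, the immediate early genes 8 of 16, the endoplasmic reticulum stress genes 7 of 17 and the hypoxia genes 5 of 11. The interferon genes had 10 of 13 above 0. Of the adipokines 7 of 10 had a slope above 0, with 2 of 10 in HF fed and 9 of 10 in LF fed animals. Without the 7 arrays 6 of 10 in LF fed animals did. By diet some lists stood further from that background. For glyceroneogenesis and pyruvate dehydrogenase 5 of 16 were above 0 in HF fed and 12 of 16 in LF fed animals. For the respiratory chain it was 15 of 38 and 29 of 38. The difference was below 0 for 14 of 16 and 32 of 38, and for 10 of 10 adipokines, against 58.2% of all genes. It was below 0 for 11 of 16, 25 of 38 and 7 of 10 without the 7 arrays, against 57.5%.

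**Figure D4:**
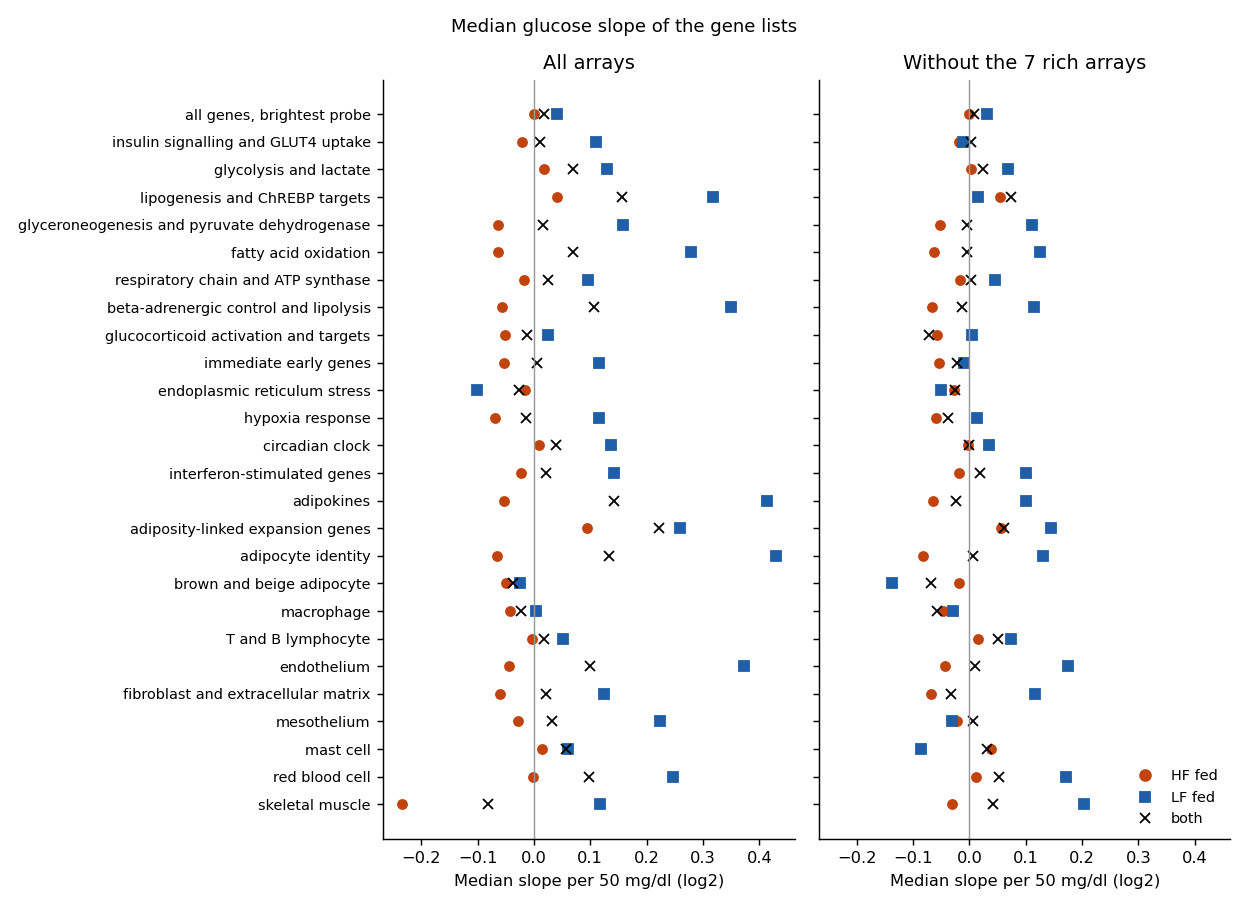
Median slope of log2 intensity per 50 mg/dl of glucose over the tested genes of each list, for HF fed animals (circles), LF fed animals (squares) and all animals (crosses), with all arrays on the left and without the 7 rich arrays on the right. On the left, the fatty acid oxidation, adipocyte identity and endothelium lists lie at 0.279, 0.43 and 0.372 in LF fed animals and at -0.063, -0.066 and -0.044 in HF fed animals.

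Among the cell type lists, the adipocyte and endothelial genes also had medians of opposite sign in the 2 diets. This was common among the lists, below 0 in HF fed and above 0 in LF fed animals. The HF fed and LF fed medians were -0.061 and 0.125 for fibroblast and matrix and -0.029 and 0.223 for mesothelium genes. They were -0.234 and 0.118 for skeletal muscle, -0.053 and 0.414 for adipokine and -0.069 and 0.115 for hypoxia genes. Not all lists had it, as mast cell genes had 0.014 and 0.061. Over all genes the medians were 0.001 and 0.041. Of the adipocyte identity genes, among them Adipoq, Slc2a4 and Retn, 13 of 14 had a slope above 0 in LF fed animals (median 0.43), and 3 of 14 in HF fed animals (median -0.066). All 14 had a lower slope in HF fed animals, 4 at an unadjusted p under 0.05, and 58.2% of all genes had one. The mean level of this list in LF fed animals was 9.58 to 9.89 (median 9.72) on the rich arrays and 10.72 to 11.39 (median 11.25) on the others, and both rich arrays of LL belonged to its lowest glucose values. The mean of the list had an r with glucose of 0.15 over all animals, -0.29 in HF fed and 0.34 in LF fed animals, given as a description. Without the rich arrays r was 0.45 in LF fed animals. In LL it changed sign, from 0.55 with all arrays to -0.13 in the 8 animals left, so the LF fed relation was not shared by LL. Without the 7 arrays 7 of 14 had a slope above 0 over all animals, 11 of 14 in LF fed animals (median 0.131) and 3 of 14 in HF fed animals. The median difference was then -0.191, and 12 of 14 had a lower slope in HF fed animals.

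With the groups of each diet pooled, the endothelial genes were split by sign with and without the 7 arrays. Of 10 tested genes 10 had a slope above 0 in LF fed animals (median 0.372) and 2 in HF fed animals (median -0.044). All 10 had a lower slope in HF fed animals, 5 at an unadjusted p under 0.05, against 9.23% of all genes. Without the 7 arrays all 10 again had a slope above 0 in LF fed animals, with a median of 0.175, and all 10 had a lower slope in HF fed animals, against 57.5% of all genes. The mean of the list had an r with glucose of 0.40 in LF fed animals, and 0.66 without the rich arrays. In HF fed animals r was -0.31 and -0.3. By group, with all arrays, r was 0.69 in LL, 0.12 in HL, 0.17 in LH and -0.49 in HH, so LH did not share the sign of HH. Esam, an adhesion molecule of endothelial junctions, had a slope of 0.22 (unadjusted p = 0.0418) over all arrays, and Eng a slope of -0.21 (unadjusted p = 0.00284) in HF fed animals, which was -0.11 without HH 7. No endothelial gene passed the adjustment.

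Of the other lists, the macrophage genes had 3 of 10 with a slope above 0, 1 of 10 in HF fed and 5 of 10 in LF fed animals. The fibroblast and matrix genes had 9 of 16. The mast cell genes had 6 of 7, also in HF fed animals, and 5 of 7 in LF fed animals. The red blood cell genes had 5 of 5, the skeletal muscle genes 3 of 10 and the brown and beige adipocyte genes 2 of 6. The lymphocyte genes had 4 of 6 above 0, with a median of 0.018, as over all genes, and 6 of 6 (median 0.051) without the 7 arrays. Their members of smallest p, Cd79b and Cd2, had slopes of 0.12 and 0.16 with unadjusted p under 0.05. Without the 7 arrays the slopes were 0.10 (unadjusted p = 0.0968) and 0.12 (unadjusted p = 0.0379). The adiposity-linked genes had 8 of 9 above 0 (median 0.222) and 7 of 9 in HF fed animals (median 0.094).

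The testis markers had slopes below 0 in both diets, and the epididymis markers in LF fed animals. Of the testis genes 0 of 11 had a slope above 0, with a median of -0.802, a range of -1.64 to -0.34, and 2 at an unadjusted p under 0.05, Prm1 and Tnp1, a transition protein of sperm chromatin. The same 0 of 11 held in HF fed animals (median -0.443), in LF fed animals (median -1.309) and without the 7 arrays (median -0.394). The mean of the list had an r with glucose of -0.3 (rho -0.32), -0.31 in HF fed and -0.33 in LF fed animals, and -0.28 without the 7 arrays. Of the epididymis and seminal vesicle genes, among them Svs5, 0 of 6 had a slope above 0 with all arrays (median -0.446) and 2 of 6 without the 7 arrays. In LF fed animals it was 0 of 6 (median -1.584) and in HF fed animals 4 of 6 (median 0.301). No gene of either list passed the adjustment. The fits were also run with the epididymis and testis list means as covariates. Over all arrays 276 probes then had an unadjusted p under 0.05, 129 above 0 and 147 below, against 370 above 0 and 57 below without them. In LF fed animals the count was 407 against 1140, and in HF fed animals 600 against 591. What part these organs' RNA had in the slopes of single adipose genes was not tested.

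**Figure D5:**
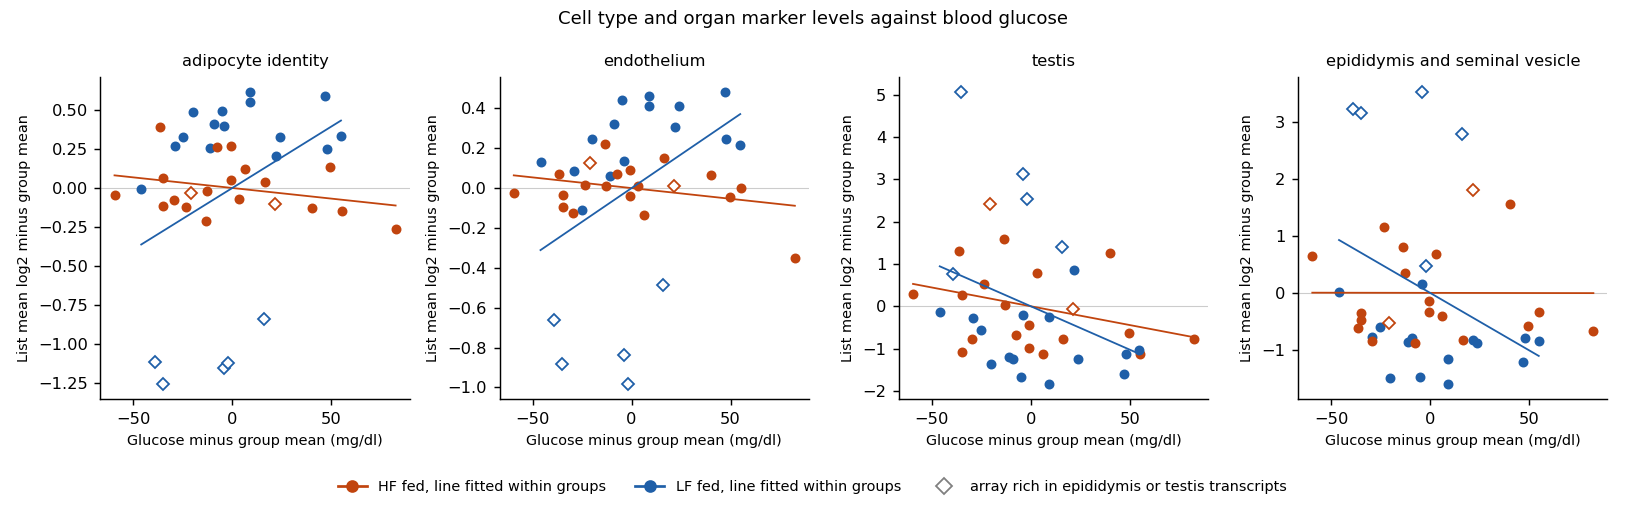
Mean log2 intensity of 4 marker lists against glucose in mg/dl, each centred on the mean of the animal's group, over the 40 animals. Orange marks HF fed and blue LF fed animals with a line fitted within groups for each diet, and open diamonds are the 7 animals whose arrays were rich in epididymis or testis transcripts. The line for the testis markers slopes down in both diets, and the open diamonds of LF fed animals lie lowest for adipocyte identity and endothelium.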

How the data were processed

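RNA of gonadal white adipose tissue from 40 mice was hybridised to MouseRef-8 v2.0 bead arrays. The deposited values are linear fluorescence intensity per probe, read by the authors with BeadStudio (version not given in the sources used here) and quantile-normalized by them over the 40 arrays. The sorted columns differed by at most 2.31%, and values ran from 47.5 to 43659 units. The number of arrays limits the precision. Probes were named from the platform annotation, with symbols updated through the gene identifier. Of 25697 probes, 23978 had 1 symbol, 0 had several and 1719 had none.

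Of the receptor probes used for the background, 48 of 1304 (3.68%) themselves passed the filter, and 11453 probes were left out in all. Log2 intensities were fitted with limma 3.58.1 (R 4.3.3; lmFit, eBayes with an intensity trend) on the 4 group means and a linear glucose term, in all animals, in HF fed and in LF fed animals, and with a glucose term for each diet to test the difference. Tests were two-sided, with Benjamini-Hochberg adjustment over the 14244 probes and calls at an adjusted p under 0.05. Gene counts and lists take the brightest probe of each gene. A gene named for a small p is described by the probe with that p, and the brightest is given beside it where they differ. Relations across animals were tested by permuting glucose within groups (100000 resamples; Python 3.11.15, numpy 2.4.6, scipy 1.17.1, pandas 2.3.3; plots with matplotlib 3.10.9). The fits were tested on simulated data with known slopes. The simulated noise was independent between probes and arrays, so that test does not bear on effects of organ transcripts or cages. No 2 arrays held identical values.

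The genes named were those of smallest p: 8 in each direction over all arrays, 5 in each direction for HF fed, LF fed and their difference, 3 of each list, and a fixed set of genes of glucose handling, of which those described most fully are shown. The members and the 28 lists were chosen with earlier results of these data known. Animals are separate mice, but some share a labelled cage, so p-values that treat animals as independent may be too small. Alternatives left out arrays, animals or cages, or changed the cage terms, glucose scale, covariates, probe filter, offset, normalization, array weights or trend.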

Additional observations from a re-analysis of the deposited data

Results flagged for a closer look

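Within each group of 10 animals the highest and the lowest value of glucose, of the body measures and of 23 named genes were checked for standing apart from the rest, by the gap to the nearest value over the group's range. Of 108 such checks 5 stood apart, and chance alone gives about 1 in 20. LL 4, with an array rich in testis transcripts, was the lowest of LL for Stx12 (log2 intensity 8.87, next 9.43) and the highest for Usp1 (9.41, next 7.81) and Eif5 (10.80, next 10.20). HH 7, the HH animal with the highest glucose, was the highest of HH for Itga2b (8.51, next 7.19). HH 6 was the lowest of HH for Lep (12.60, next 13.30). Without LL 4 the slope over all arrays was 0.13 for Stx12 and -0.16 for Usp1, and without HH 7 the slope in HF fed animals was 0.14 for Itga2b.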

How the results depend on the processing

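Of 231 alternative settings of the 4 comparisons, 1 had a probe that passed. It was the difference between diets with array weights, where 2 probes passed, Chst8 among them. The lowest adjusted p of any setting was 0.556 over all arrays, 0.258 in HF fed, 0.104 in LF fed animals and 0.0219 for the difference. The count of probes at an unadjusted p under 0.05 did depend on single animals. Over all arrays it ran from 253 without LL 4 to 908 without HH 7, in HF fed animals from 185 without HH 7 to 866 without HH 1, in LF fed animals from 490 without HL 10 to 1869 without HL 2, and for the difference from 797 without HH 7 to 2631 without HL 2. Leaving out 1 cage gave 155 to 1115, 118 to 866, 324 to 2178 and 672 to 2790, and the other settings gave 276 to 1183, 174 to 1548, 292 to 3494 and 772 to 2819, in the same order. The cause of these changes was not tested.

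Of 80 slopes of 74 named genes, recomputed 5086 times in all, 87 changed sign, in 14 genes. Of the 58 slopes with an unadjusted p under 0.05, the only one that changed sign was that of Eif5. Slopes over all arrays that changed sign are given here. With arrays averaged over each of the 17 combinations of cage and diet they were 0.0068 for Eif5, -0.095 for Scd2, -0.27 for Pck1, 0.49 for Pdk4, -0.056 for Hk2, -0.47 for Elovl6, -0.25 for Rbp4, -0.41 for Mest and 0.18 for Ccl2. Without the 7 rich arrays they were -0.32 for Pck1, -0.011 for Scd1, -0.14 for Rbp4, -0.052 for Adipoq and -0.058 for Mest, and without the 5 low-correlation arrays -0.30, -0.0023, -0.12, -0.043 and -0.034. With the epididymis and testis list means as covariates they were -0.00075 for Slc2a4, -0.38 for Pck1, -0.017 for Scd1, -0.20 for Rbp4, -0.086 for Adipoq and -0.057 for Mest. With array weights they were -0.19 for Pck1, 0.012 for Pdk4, -0.00053 for Scd1, -0.094 for Rbp4, -0.027 for Adipoq and -0.015 for Mest. For Pck1 the slope was -0.00069 with 50 units added, -0.004 with arrays centred on their median and -0.13 with no centring on the groups. With glucose centred within cage and diet it was 0.037 for Irs1 and 0.085 for Adgre1. Without the 2 animals farthest in glucose it was 0.19 for Pdk4, -0.049 for Elovl6 and 0.0071 for Adgre1. For Pdk4 it was 0.003 with log2 glucose, and with the second body weight in the model it was 0.07 for Pdk4 and 0.024 for Adgre1.

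Leaving out 1 animal or 1 cage at a time changed the sign for 8 genes, whose slopes then ran from -0.16 to 0.15 for Pck1, -0.12 to 0.18 for Pdk4, -0.041 to 0.19 for Elovl6, -0.0036 to 0.074 for Scd1, -0.019 to 0.29 for Rbp4, -0.066 to 0.27 for Mest, -0.18 to 0.034 for Ccl2 and -0.085 to 0.042 for Adgre1.

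For the weight at 3 weeks, r with glucose was -0.09 over all animals and -0.32 in HF fed animals without the 2 animals farthest in glucose. Within cage and diet it was -0.11 over all, -0.1 in HF fed and -0.12 in LF fed animals. For length r was -0.05 over all animals without those 2, and 0.29 in LF fed animals within cage and diet. Without the 7 arrays, members with a slope above 0 over all arrays numbered 8 for fatty acid oxidation, 5 for beta-adrenergic control, 4 for endoplasmic reticulum stress, 7 for adipocyte identity, 1 for brown and beige adipocyte, 0 for macrophage, 6 for endothelium, 3 for red blood cell, 6 for skeletal muscle, 1 for intestine and 2 for epididymis and seminal vesicle. No paired analysis was possible because the replicate numbers name separate animals of each group and join none across groups. Cages, of which 5 held both diets, were used instead. With cage as a random block 431, 857, 1768 and 1934 probes had an unadjusted p under 0.05 over all arrays, in HF fed, in LF fed animals and for the difference, and 0 passed. Neu3, Cables2 and the probes of smallest p of Slc39a3 and Gcnt2 lay near the background, which limits what their slopes can show. The same holds for other named genes. Il20ra had the mean log2 intensity of Cables2, 6.558. Mtfp1, Cul2, Ap1s3, Jup and Zfp667 lay little higher, at 6.643, 6.669, 6.687, 6.724 and 6.735.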

Other observations

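The hormone-sensitive lipase gene Lipe had 2 probes that differed, and it is named after its values were seen. The brighter probe had a slope of 0.13 (unadjusted p = 0.409) over all arrays and -0.05 without the 7 rich arrays. The other probe had a slope of 0.25 (unadjusted p = 0.0055) and 0.17 (unadjusted p = 0.00075).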
